A study of Mus musculus with 12 samples.

Results

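Collagens are the main structural proteins of the extracellular matrix, and their genes were taken here as a family across 12 arrays of mouse embryonic fibroblasts, cells grown out of C57BL/6 embryos at E12.5 to E13.5. The members were all 44 genes on the array whose symbol is that of a collagen alpha chain, reached through 64 probes, out of 21367 named genes and 39429 probes in all. No measured value was used to choose them. Of the 44 genes, 32 had a probe that cleared background on every array of some group and were tested, among 14444 genes tested on the array. Of the 32, 22 cleared it on every array of all 4 groups, 3 in 3 groups (Col8a2, Col14a1 and Col25a1), 3 in 2 groups (Col4a4, Col10a1 and Col17a1) and 4 in 1 group alone. These 4 were Col26a1 (shp53), Col2a1 and Col11a2 (RASV12) and Col23a1 (shp53-first). A gene that passed through 1 group had to be high there, so the filter in part fixed its difference from the other groups, and its p-values are given as a description.

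The 4 groups had 3 arrays each, described in the design text as independent biological replicates. One group carried only a short hairpin RNA against p53 (shp53), and another only the activated RAS allele RASV12, both from viral vectors. The other two carried both, introduced in opposite orders. Cells given shp53 and then RASV12 are called shp53-first here, and cells given RASV12 and then shp53 are called RASV12-first. The series title sets cells transformed after senescence against cells transformed without it. No group without a vector was analysed here, so every comparison is between vectors, and the litters behind the replicates are not given in the sources used here. Each slide carried 1 array of every group, the slide number equalled the replicate number, and a group sat at the same position on all 3 slides, so group and position cannot be told apart.

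A collagen molecule is a triple helix of 3 alpha chains, each made of Gly-X-Y repeats. Prolyl and lysyl residues of the chains are hydroxylated in the endoplasmic reticulum, the trimer folds with the help of the chaperone HSP47, and fibrillar procollagens are trimmed outside the cell and crosslinked by lysyl oxidases. Fibrillar collagens (types I, II, III, V, XI, XXIV and XXVII) form or nucleate fibrils, and type IV forms the network of basement membranes. FACIT collagens (fibril-associated collagens with interrupted triple helices) sit on fibril surfaces. The remaining types build beaded filaments (VI), anchoring fibrils (VII) and hexagonal networks (VIII and X), or are transmembrane or multiplexin proteins. Fibroblasts are a main source of types I, III, V and VI.

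Values below are log2 levels, the log2 of the processed signal intensity less the 75th percentile of the same array, and differences between groups are differences of mean log2 levels with their standard error from limma. They compare a probe with itself across arrays, since different probes differ in brightness. Genes with an adjusted p under 0.05 (Benjamini-Hochberg, over all 14444 genes) are those said to rise, fall or be called. The fit shares its estimate of spread over all arrays. Leaving out an array of neither group compared therefore moves the adjusted p and not the difference. In bulk RNA a lower level can come from fewer cells of a type or from less RNA per cell, which cannot be told apart.

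Between 56.6% and 62.4% of spots on an array were well above background, and none was saturated. Trp53, the gene targeted by the hairpin, ranged from -3.55 to -3.06 in shp53 cells, -0.75 to -0.35 in RASV12 cells, -3.98 to -3.43 in the shp53-first group and -4.14 to -3.83 in the RASV12-first group, lower on every array labelled with the hairpin. In each group, 2 arrays were close (r = 0.993 to 0.998 over all tested genes) and the other stood apart. Whether the close arrays came from separate cultures is not given beyond the design text, and if they did not, the p-values measure a spread that is partly technical. The arrays apart were replicate 2 of shp53 and of RASV12 and replicate 1 of both groups with 2 vectors. All 8 fibroblast markers, among them Pdgfra, Thy1, Vim and Fbn1, were well above background on every array. Macrophage markers were also present. The summed log2 level of 6 of them ranged from 1.70 to 5.73 in shp53 cells, 0.76 to 0.86 in RASV12 cells, -0.87 to -0.35 in the shp53-first group and -0.64 to -0.47 in the RASV12-first group. The lowest summed level in shp53 cells was that of replicate 2. All 6 were called lower in RASV12, shp53-first and RASV12-first cells than in shp53 cells, against 12.8%, 20.3% and 23.8% of all genes. Ptprc and Cx3cr1, which mark leukocytes and macrophages, were not well above background on any array of those 3 groups, and Adgre1 and Aif1 on none of the arrays with both vectors. Ptprc, Cx3cr1 and Aif1 passed the filter only through shp53 cells, so the filter in part fixed their differences.

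Collagen transcripts were mostly lower in every group with RASV12 than in shp53 cells. In RASV12 cells 18 of 32 genes fell and 2 rose, against 12.8% and 14.3% of all genes tested (27.1% in either direction), with a median log2 difference of -1.54 against 0.05 over all genes. In shp53-first cells 19 fell and 3 rose, against 20.3% and 17.3% of all genes (37.6% in either direction), with a median of -1.65 against 0.029. In RASV12-first cells 15 fell and 2 rose, against 23.8% and 21.7% (45.5% in either direction), with a median of -1.20 against 0.022. The arrays of the 2 groups did not overlap in 5 higher and 20 lower genes in RASV12 cells (27.2% and 23.9% of all genes), 3 and 24 in shp53-first cells (25.9% and 27.3%) and 4 and 16 in RASV12-first cells (27.8% and 28.7%). These 3 comparisons share the shp53 arrays. Among the 22 genes above background on all 12 arrays, 14, 15 and 11 fell and 1 rose in each of the 3 groups, against 24.4%, 35.2% and 43.6% of all such genes called in either direction.

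With each group's 2 closest arrays averaged into 1 value, 10, 13 and 15 genes were called (7.14%, 11.8% and 17.2% of all genes). The 10 in RASV12 cells were Col4a1, Col4a2, Col5a2, Col6a2, Col8a1, Col8a2, Col10a1, Col11a1, Col12a1 and Col14a1. With a normexp background correction in place of the processed signal, 9, 8 and 11 genes were called in RASV12, shp53-first and RASV12-first cells (3.02%, 2.67% and 2.41% of all genes), every one also called above. Col4a1, Col5a2, Col8a1, Col10a1 and Col11a1 were called in all 3 groups with normexp. The further ones were Col3a1, Col6a2, Col8a2 and Col14a1 in RASV12 cells, Col4a5, Col5a1 and Col8a2 in the shp53-first group, and Col4a2, Col4a5, Col5a1, Col7a1, Col12a1 and Col24a1 in the RASV12-first group. All other collagen calls against shp53 cells with all arrays in were lost with normexp. With extreme local backgrounds also replaced, a variant added after seeing the data, normexp gave 18, 21 and 15 calls. Of all genes, 20.9%, 30.4% and 36.6% were then called.

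**Figure D1:**
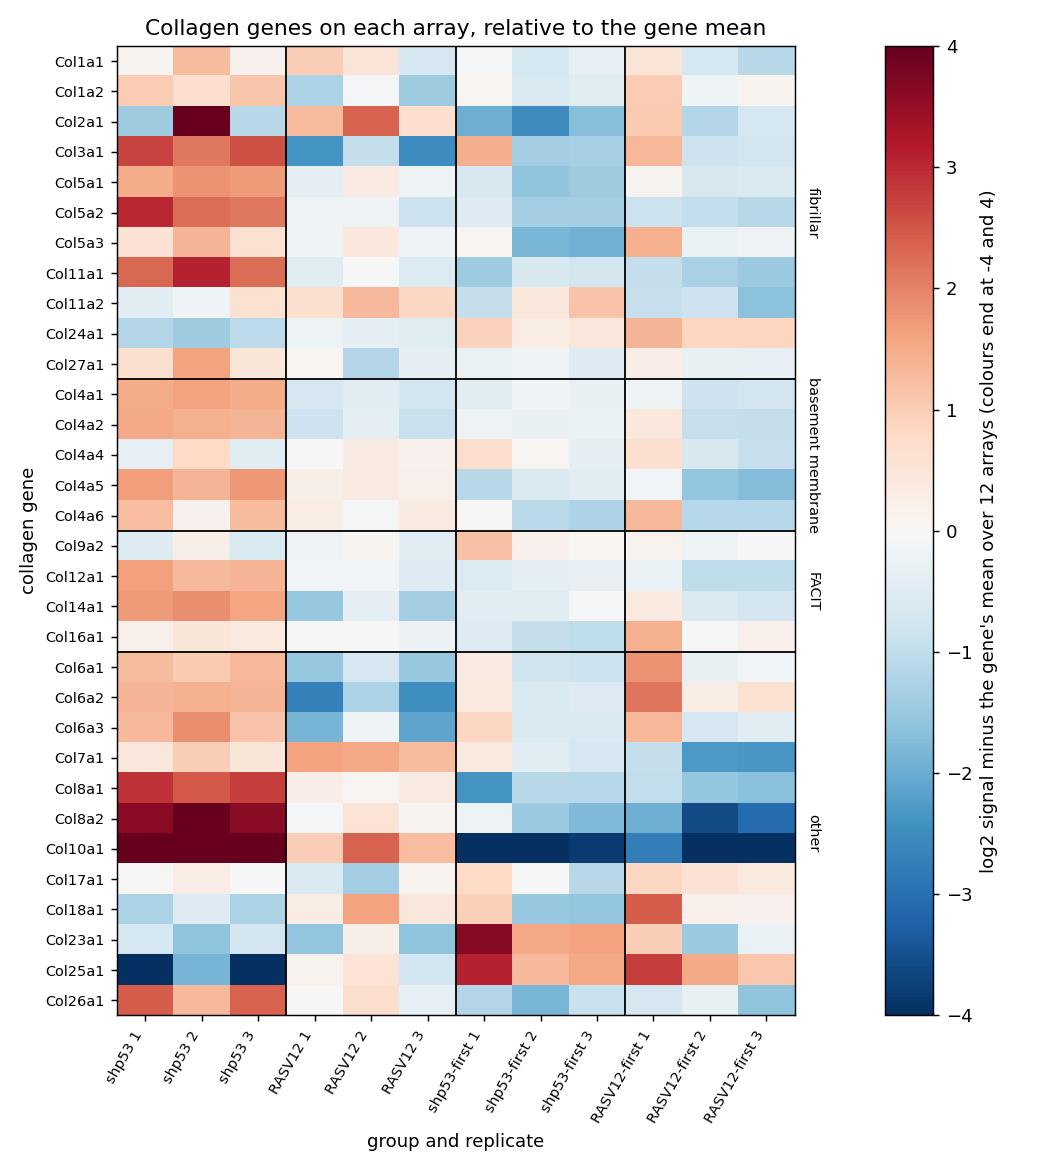
Heat map of the 32 tested collagen genes (rows, by class) on the 12 arrays (columns, by group and replicate). Colour gives the log2 level less the gene's mean over the 12 arrays, with colours ending at -4 and 4. Most rows are red in the 3 shp53 columns, while Col24a1 and Col25a1 are blue there.

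**Figure D2:**
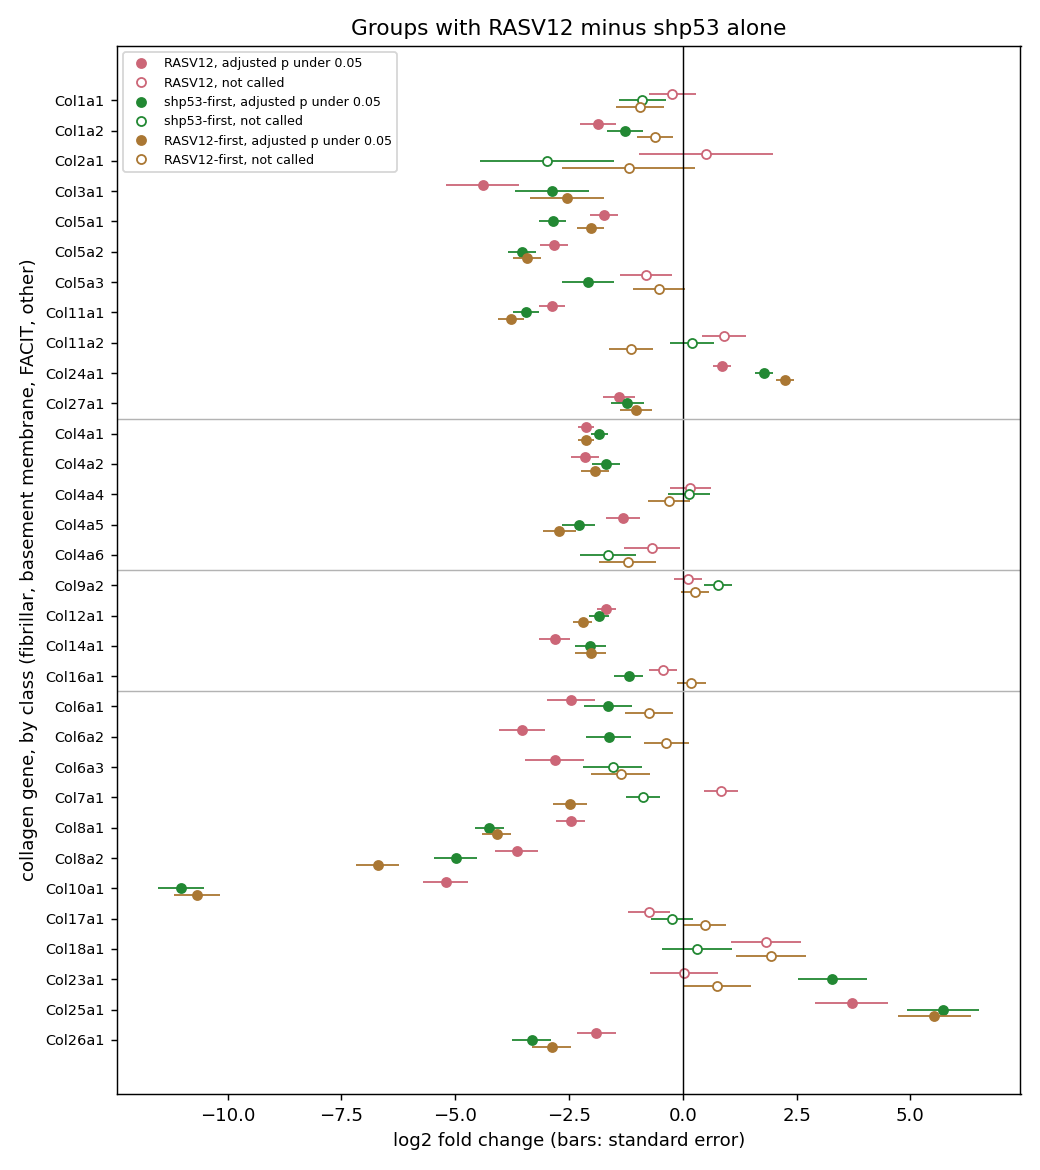
Log2 difference of each of the 3 groups with RASV12 from shp53 cells, for 32 collagen genes by class, with bars for the standard error. Filled points passed an adjusted p of 0.05. Most points lie left of 0, Col10a1 farthest at -5.21, -11.03 and -10.68, and Col24a1 and Col25a1 lie right of 0 in all 3 groups.

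Among the 11 fibrillar genes, 6 fell and 1 rose in RASV12 cells, 7 fell and 1 rose in shp53-first cells, and 5 fell and 1 rose in RASV12-first cells, relative to shp53 cells. Of all genes, 12.8%, 20.3% and 23.8% fell and 14.3%, 17.3% and 21.7% rose in these 3 comparisons. The 2 chains of type I collagen, the main fibril protein of fibroblasts, differed in their calls but were not tested against each other. Col1a1 read 3.73, 4.91 and 3.79 on the shp53 arrays, 4.62, 4.16 and 2.97 on the RASV12 arrays, 3.54, 2.94 and 3.29 on the shp53-first arrays and 4.15, 2.94 and 2.51 on the RASV12-first arrays. The groups overlapped in every pair but shp53 and shp53-first, and the differences from shp53 cells were -0.23 ± 0.52 (adjusted p = 0.784) in RASV12 cells, -0.89 ± 0.52 (adjusted p = 0.202) in the shp53-first group and -0.94 ± 0.52 (adjusted p = 0.161) in the RASV12-first group. No comparison of Col1a1 was called. Without RASV12-first replicate 1, its difference from shp53 cells in that group was -1.42 (adjusted p = 0.0388).

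Col1a2 read 7.51, 7.16 and 7.59 on the shp53 arrays, 5.21, 6.39 and 5.07 on the RASV12 arrays, 6.57, 5.87 and 6.0 on the shp53-first arrays and 7.51, 6.32 and 6.58 on the RASV12-first arrays. All shp53 arrays lay above all RASV12 and shp53-first arrays, and RASV12-first replicate 1 reached the shp53 level. Col1a2 fell by 1.86 ± 0.39 in RASV12 cells (adjusted p = 0.00557) and by 1.27 ± 0.39 in shp53-first cells (adjusted p = 0.0272), while the difference in RASV12-first cells was -0.61 ± 0.39 (adjusted p = 0.223). It was also higher in RASV12-first than in RASV12 cells, by 1.25 ± 0.39 (adjusted p = 0.0284). The shp53-first call was lost without shp53 replicate 1 or 3 or shp53-first replicate 2 or 3 (adjusted p = 0.0778 to 0.0891). The call against RASV12 cells was lost without RASV12 replicate 1 or 3 or RASV12-first replicate 1 (adjusted p = 0.0827 to 0.105).

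Type III collagen, a homotrimer that forms mixed fibrils with type I, had the largest fall of the fibrillar genes in RASV12 cells. Col3a1 read 6.33, 5.75 and 6.18 on the shp53 arrays, 1.23, 2.69 and 1.13 on the RASV12 arrays, 5.09, 2.25 and 2.31 on the shp53-first arrays and 4.95, 2.81 and 2.86 on the RASV12-first arrays. The shp53 arrays lay above all others, and replicate 1 of both groups with 2 vectors lay more than 2 log2 units above the other replicates. Col3a1 was 21.1-fold lower in RASV12 cells (-4.40 ± 0.81, adjusted p = 0.00266), and its log2 differences in shp53-first and RASV12-first cells were -2.87 ± 0.81 (adjusted p = 0.0186) and -2.55 ± 0.81 (adjusted p = 0.0261). The calls in the groups with 2 vectors were each lost without shp53 replicate 1 or 3 and without replicate 2 or 3 of the same group, with adjusted p from 0.0543 to 0.0718 in shp53-first cells and from 0.068 to 0.0901 in RASV12-first cells.

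Type V collagen nucleates type I fibrils. Col5a1 read 4.28, 4.59 and 4.52 on the shp53 arrays, 2.44, 3.15 and 2.60 on the RASV12 arrays, 2.18, 1.21 and 1.40 on the shp53-first arrays and 2.92, 2.16 and 2.24 on the RASV12-first arrays. Every group with RASV12 lay below every shp53 array. The differences from shp53 cells were -1.73 ± 0.30 (adjusted p = 0.00174), -2.86 ± 0.30 (adjusted p = 5.51e-05) and -2.02 ± 0.30 (adjusted p = 0.000371) in RASV12, shp53-first and RASV12-first cells. Shp53-first cells were also lower than RASV12 cells, with a difference of -1.13 ± 0.30 (adjusted p = 0.0196), a call lost without RASV12 replicate 2 or shp53-first replicate 2 or 3 (adjusted p = 0.0597 to 0.0749).

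Col5a2 read 2.41, 1.63 and 1.52 on the shp53 arrays, -0.73, -0.74 and -1.47 on the RASV12 arrays, -1.12, -1.97 and -1.97 on the shp53-first arrays and -1.46, -1.57 and -1.70 on the RASV12-first arrays. The 3 groups with RASV12 lay far below shp53 cells and near one another. Their differences from shp53 cells were -2.83 ± 0.31 (adjusted p = 0.000117), -3.54 ± 0.31 (adjusted p = 1.99e-05) and -3.43 ± 0.31 (adjusted p = 1.57e-05), called under every alternative run. Col5a2 lies next to Col3a1 in the RefSeq gene order on chromosome 1. Col5a3, another type V chain, fell in shp53-first cells (-2.09 ± 0.57, adjusted p = 0.0167), a call lost without shp53 replicate 2 or shp53-first replicate 2 or 3 (adjusted p = 0.0516 to 0.0649). The Col5a3 differences in RASV12 and RASV12-first cells were -0.80 ± 0.57 (adjusted p = 0.338) and -0.52 ± 0.57 (adjusted p = 0.482).

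Among the other fibrillar genes, Col11a1, a type XI chain of thin cartilage fibrils, fell in all 3 groups, by 2.87 ± 0.29, 3.45 ± 0.29 and 3.77 ± 0.29 log2 units, called under every alternative run. Col27a1, a chain of cartilage and other tissues, fell by 1.40, 1.22 and 1.03. Its shp53-first call was lost without shp53 replicate 2 or shp53-first replicate 3 (adjusted p = 0.0663 and 0.0709), and its RASV12-first call without shp53 replicate 1 or 2, RASV12 replicate 3 or RASV12-first replicate 2 or 3 (adjusted p = 0.0511 to 0.125). Col2a1, the cartilage fibril chain, was well above background on all 3 RASV12 arrays and on 1, 0 and 1 arrays of shp53, shp53-first and RASV12-first cells. Its value in shp53 replicate 2 was -0.32, against -7.03 and -6.70 in the other shp53 arrays. No comparison of Col2a1 was called with that array in. Without it RASV12 cells were called higher than shp53, shp53-first and RASV12-first cells (adjusted p = 0.0135, 0.00247 and 0.0423), but no shp53 array was then well above background, and RASV12 cells were the group through which the gene passed the filter. Col11a2, which passed the filter only through RASV12 cells, was lower in RASV12-first than in RASV12 cells (adjusted p = 0.00792), at least 1.69-fold since no RASV12-first array was well above background, and with normexp its sign turned (1.38, not called). The comparison of RASV12-first with shp53 cells was called without shp53-first replicate 1 or 3 (adjusted p = 0.0194 and 0.0494) and not with all arrays in, with 1 shp53 array and no RASV12-first array well above background.

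Col24a1 moved the other way. It encodes a fibrillar chain of developing bone and cornea. Col24a1 read -1.95, -2.22 and -1.85 on the shp53 arrays, -1.0, -1.19 and -1.27 on the RASV12 arrays, 0.12, -0.48 and -0.34 on the shp53-first arrays and 0.56, 0.076 and 0.055 on the RASV12-first arrays. Each of the 3 groups with RASV12 lay above shp53 cells without overlap. The gene rose by 0.86 ± 0.20 (adjusted p = 0.00964) in RASV12 cells, 1.78 ± 0.20 (adjusted p = 9.45e-05) in the shp53-first group and 2.24 ± 0.20 (adjusted p = 1.4e-05) in the RASV12-first group. It was also higher in shp53-first and RASV12-first cells than in RASV12 cells, by 0.92 ± 0.20 (adjusted p = 0.0085) and 1.39 ± 0.20 (adjusted p = 0.000489). Between the 2 orders the difference was 0.47 ± 0.20 (adjusted p = 0.152). With normexp the RASV12 and shp53-first differences from shp53 cells were 0.082 and 0.94, neither called.

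**Figure D3:**
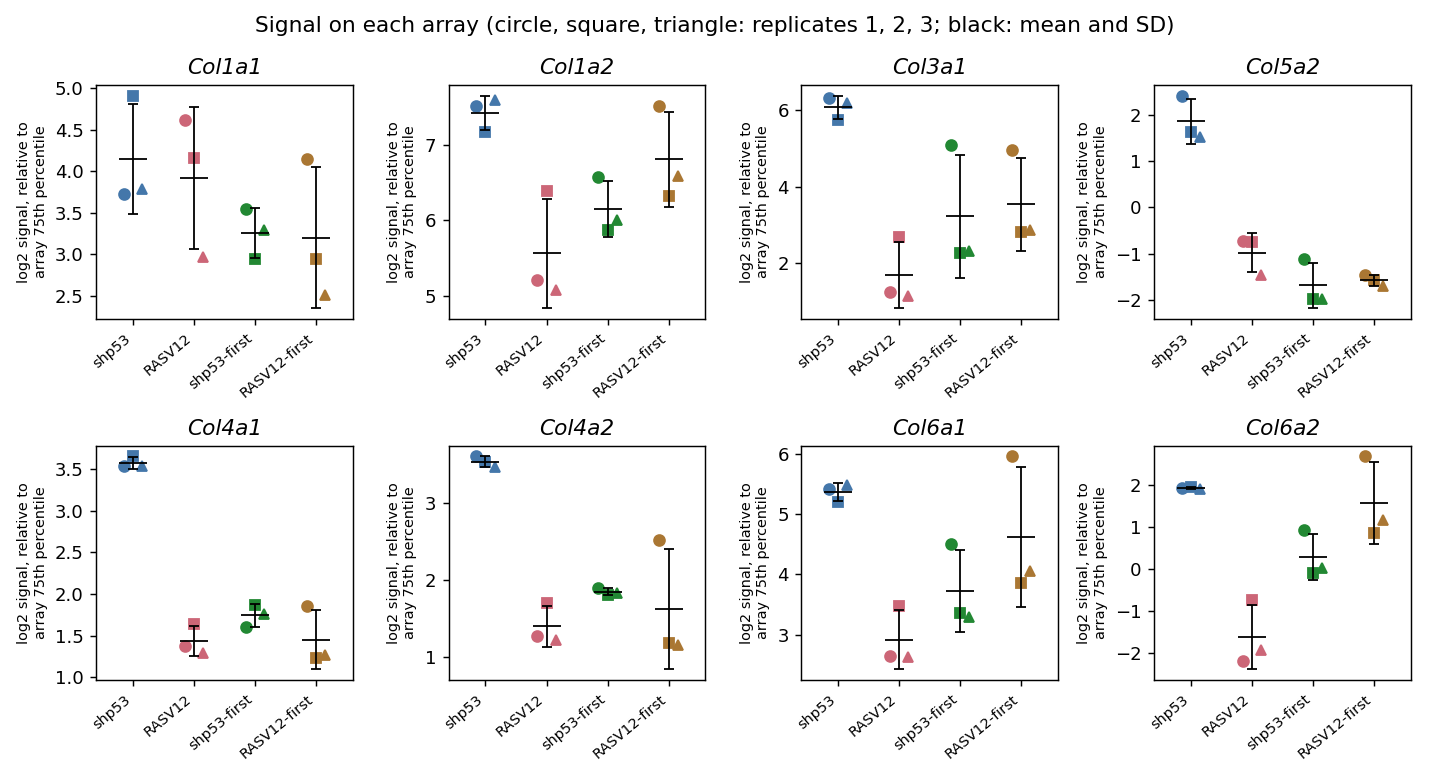
Log2 level on each array of the type I, III, V, IV and VI genes named on the panels, for the 4 groups. Circles, squares and triangles are replicates 1, 2 and 3, and black marks give the mean and SD of 3 arrays. The shp53 points of Col4a1 lie at 3.53 to 3.65 and those of the other groups at 1.23 to 1.87, while RASV12-first replicate 1 of Col6a1 and Col6a2 lies above all shp53 points.

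Of the 5 basement membrane genes tested, Col4a1, Col4a2 and Col4a5 fell in all 3 groups relative to shp53 cells, and no gene was called higher by limma (also 0 at an unadjusted p under 0.05). The shares of all genes that fell were 12.8%, 20.3% and 23.8% in RASV12, shp53-first and RASV12-first cells. The 2 ubiquitous chains of the type IV network are transcribed in opposite directions from a shared promoter region. Their RefSeq promoter windows (GRCm38.p6, 250 bases before to 50 after the annotated start) overlapped by 78 bases, and the 2 starts lay 21 bases apart. The Col4a1 window is chr8:11312777-11313076 on the minus strand and the Col4a2 window is chr8:11312555-11312854 on the plus strand. Both are shown because they share bases and belong to chains with like changes in these groups, 5' to 3' on the gene's own strand. Capitals mark matches to the CCAAT box (CCAAT or ATTGG), the GC box (GGGCGG or CCGCCC), the TATA box (TATAAA or TTTATA) and the AP-1 site (TGANTCA) on either strand.
Col4a1: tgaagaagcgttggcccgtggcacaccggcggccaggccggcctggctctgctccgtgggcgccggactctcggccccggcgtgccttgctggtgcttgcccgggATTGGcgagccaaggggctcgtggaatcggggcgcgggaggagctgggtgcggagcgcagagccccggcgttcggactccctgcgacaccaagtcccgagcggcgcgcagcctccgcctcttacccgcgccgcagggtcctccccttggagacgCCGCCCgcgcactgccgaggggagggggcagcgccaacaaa
Col4a2: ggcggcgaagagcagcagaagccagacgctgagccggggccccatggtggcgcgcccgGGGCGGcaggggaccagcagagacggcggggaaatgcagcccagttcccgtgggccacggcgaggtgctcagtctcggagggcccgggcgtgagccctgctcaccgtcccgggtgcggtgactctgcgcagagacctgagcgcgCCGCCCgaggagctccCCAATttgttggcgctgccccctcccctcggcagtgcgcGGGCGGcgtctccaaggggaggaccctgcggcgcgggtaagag
Each window held 1 CCAAT match, Col4a1 held 1 GC box match and Col4a2 held 3, and neither held a TATA or AP-1 match. One GC box match, 10 bases after the Col4a1 start and 8 after the Col4a2 start, lay in the overlap and was read from both strands. Over 38 windows of 35 collagen genes, GC box matches were in 60.5%, CCAAT matches in 34.2%, TATA matches in 13.2% and AP-1 matches in 2.63%. Over all 32851 RefSeq windows these shares were 35.7%, 37.4%, 13.6% and 7.81%. The median GC content was 59.9% in the collagen windows and 52.7% in all windows, and its part in the GC box shares was not tested.

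Col4a1 read 3.53, 3.65 and 3.53 on the shp53 arrays, 1.38, 1.64 and 1.29 on the RASV12 arrays, 1.60, 1.87 and 1.76 on the shp53-first arrays and 1.86, 1.23 and 1.27 on the RASV12-first arrays. Col4a2 read 3.61, 3.54 and 3.47 on the shp53 arrays, 1.28, 1.71 and 1.22 on the RASV12 arrays, 1.90, 1.81 and 1.84 on the shp53-first arrays and 2.52, 1.19 and 1.16 on the RASV12-first arrays. Both chains stood highest on every shp53 array, with no overlap with any other group. Col4a1 was 4.38-fold, 3.54-fold and 4.34-fold lower in RASV12, shp53-first and RASV12-first cells, with log2 differences of -2.13 ± 0.18 (adjusted p = 2.2e-05), -1.83 ± 0.18 (adjusted p = 4.04e-05) and -2.12 ± 0.18 (adjusted p = 1e-05). Col4a2 was 4.4-fold, 3.23-fold and 3.77-fold lower, with -2.14 ± 0.31 (adjusted p = 0.000666), -1.69 ± 0.31 (adjusted p = 0.00202) and -1.92 ± 0.31 (adjusted p = 0.000716). The Col4a1 calls held under every alternative run. None of the other comparisons of the pair was called with all arrays in.

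Col4a5, a chain of specialised basement membranes such as that of the kidney glomerulus, fell in all 3 groups (-1.31 ± 0.37, -2.29 ± 0.37 and -2.71 ± 0.37) and was lower in RASV12-first than in RASV12 cells (-1.40 ± 0.37, adjusted p = 0.0133). The RASV12 call was lost without replicate 1 or 3 of shp53 or RASV12 (adjusted p = 0.0671 to 0.0782), and that against RASV12 cells without RASV12-first replicate 2 or 3 (adjusted p = 0.0536 and 0.0529). Its head-to-head neighbour Col4a6 was not called in any comparison (differences from shp53 cells of -0.68 ± 0.62, -1.64 ± 0.62 and -1.21 ± 0.62). Its shp53-first difference passed without shp53 replicate 2 (-2.0, adjusted p = 0.0446), without shp53-first replicate 1 (-2.05, adjusted p = 0.0362) and without RASV12-first replicate 1 (-1.64, adjusted p = 0.00734), and without that last array RASV12-first cells were also lower than shp53 cells (-2.02, adjusted p = 0.00379). A second Col4a6 probe, also well above background on all 12 arrays, differed from shp53 cells by 0.062 ± 0.24, -0.036 ± 0.24 and 0.10 ± 0.24 (adjusted p over all probes = 0.881, 0.919 and 0.758), so the 2 probes disagree. Col4a4 was also not called in any comparison, and Col4a3 was not well above background on any array.

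Of the 4 FACIT genes tested, 2 fell in RASV12 and in RASV12-first cells (12.8% and 23.8% of all genes) and 3 in shp53-first cells (20.3%), relative to shp53 cells. Type XII collagen binds the surface of type I fibrils. Col12a1 read 4.28, 3.95 and 4.0 on the shp53 arrays, 2.52, 2.52 and 2.13 on the RASV12 arrays, 2.10, 2.29 and 2.31 on the shp53-first arrays and 2.37, 1.63 and 1.64 on the RASV12-first arrays. The shp53 arrays lay above all others and the other groups overlapped one another. Its differences from shp53 cells were -1.68 ± 0.21 (adjusted p = 0.000277), -1.84 ± 0.21 (adjusted p = 0.000108) and -2.20 ± 0.21 (adjusted p = 2.37e-05). With normexp the RASV12 and shp53-first differences were -1.28 and -1.58, not called (adjusted p = 0.116 and 0.0654).

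Type XIV collagen regulates fibril growth. Col14a1 read -2.51, -2.33 and -2.62 on the shp53 arrays, -5.72, -4.57 and -5.59 on the RASV12 arrays, -4.62, -4.67 and -4.25 on the shp53-first arrays and -3.81, -4.77 and -4.94 on the RASV12-first arrays. No array of another group reached the shp53 range, and the differences were -2.81 ± 0.34 (adjusted p = 0.000231), -2.03 ± 0.34 (adjusted p = 0.00121) and -2.02 ± 0.34 (adjusted p = 0.000928). A second Col14a1 probe, of lower mean over the arrays, differed more. It read 0.31, -0.47 and 0.33 in shp53 cells and was not well above background on any RASV12 or shp53-first array, at least 66.6-fold and 70.0-fold lower than in shp53 cells. On the RASV12-first arrays it read -5.72, -5.11 and -6.39, with 1 array well above background.

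Col16a1 read 3.90, 4.16 and 4.09 on the shp53 arrays, 3.71, 3.67 and 3.47 on the RASV12 arrays, 3.16, 2.74 and 2.68 on the shp53-first arrays and 5.11, 3.70 and 3.89 on the RASV12-first arrays. Col16a1, a FACIT chain of fibroblasts and smooth muscle, was lower in shp53-first than in shp53 cells (-1.19 ± 0.31, adjusted p = 0.0133), and the mean of its 3 probes gave -0.57 (adjusted p = 0.122). Its shp53, RASV12 and RASV12-first arrays all lay above the shp53-first arrays. In RASV12-first cells the probe used differed from shp53 cells by 0.19 ± 0.31, and the other probes by 0.44 ± 0.26 and 1.31 ± 0.34. The adjusted p over all probes was 0.652, 0.183 and 0.0108. Col9a2, a cartilage chain, was not called in any comparison. Its largest difference was in shp53-first cells (0.77 ± 0.31, adjusted p = 0.0761), and passed without shp53 replicate 2 (1.04, adjusted p = 0.0262).

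Type VI collagen forms beaded filaments around cells from 3 chains, and Col6a1 and Col6a2 are neighbours on chromosome 10. Their promoter windows are shown as those of another pair of neighbouring chain genes, with the motifs in capitals as above. The Col6a1 window is chr10:76725995-76726294 on the minus strand, and the Col6a2 window, the first of 2 in the table, is chr10:76623355-76623654 on the minus strand.
Col6a1: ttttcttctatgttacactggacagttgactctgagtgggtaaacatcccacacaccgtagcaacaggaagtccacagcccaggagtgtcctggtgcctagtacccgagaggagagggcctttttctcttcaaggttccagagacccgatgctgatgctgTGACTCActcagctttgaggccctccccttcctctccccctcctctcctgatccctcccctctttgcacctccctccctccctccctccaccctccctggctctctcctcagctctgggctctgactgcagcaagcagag
Col6a2: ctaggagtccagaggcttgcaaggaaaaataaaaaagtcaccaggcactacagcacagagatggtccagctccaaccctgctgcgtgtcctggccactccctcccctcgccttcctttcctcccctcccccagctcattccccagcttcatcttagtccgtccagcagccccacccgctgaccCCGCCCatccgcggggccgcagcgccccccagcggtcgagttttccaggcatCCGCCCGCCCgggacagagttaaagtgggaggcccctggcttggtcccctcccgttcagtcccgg
Col6a1 held the only AP-1 match among the 38 collagen windows, 90 bases before the start, and Col6a2 held 3 GC box matches, 2 of which overlap each other.

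Col6a1 read 5.42, 5.20 and 5.48 on the shp53 arrays, 2.64, 3.48 and 2.63 on the RASV12 arrays, 4.50, 3.36 and 3.30 on the shp53-first arrays and 5.96, 3.85 and 4.06 on the RASV12-first arrays. Col6a2 read 1.91, 1.95 and 1.90 on the shp53 arrays, -2.17, -0.74 and -1.91 on the RASV12 arrays, 0.92, -0.084 and 0.023 on the shp53-first arrays and 2.67, 0.85 and 1.15 on the RASV12-first arrays. Col6a3 read 3.70, 4.25 and 3.53 on the shp53 arrays, 0.54, 2.23 and 0.29 on the RASV12 arrays, 3.22, 1.82 and 1.80 on the shp53-first arrays and 3.74, 1.73 and 1.93 on the RASV12-first arrays. In all 3 genes the RASV12 arrays lay below every shp53 array, and replicate 1 of the groups with 2 vectors lay nearest to, or above, the shp53 arrays. In RASV12 cells Col6a1, Col6a2 and Col6a3 fell by 2.45 ± 0.53, 3.53 ± 0.50 and 2.81 ± 0.65 log2 units (adjusted p = 0.00627, 0.000561 and 0.00913). In shp53-first cells the differences from shp53 cells were -1.65 ± 0.53 (adjusted p = 0.0319), -1.63 ± 0.50 (adjusted p = 0.0263) and -1.54 ± 0.65 (adjusted p = 0.0856). In RASV12-first cells they were -0.74 ± 0.53 (adjusted p = 0.272), -0.36 ± 0.50 (adjusted p = 0.575) and -1.36 ± 0.65 (adjusted p = 0.11), so none of the 3 was called.

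Against RASV12 cells, RASV12-first cells had higher Col6a2, 8.96-fold (3.16 ± 0.50, adjusted p = 0.000834), and higher Col6a1 (1.71 ± 0.53, adjusted p = 0.0266), and the Col6a3 difference was 1.44 ± 0.65 (adjusted p = 0.102). Col6a2 was also higher in shp53-first than in RASV12 cells (1.89 ± 0.50, adjusted p = 0.0201). The Col6a2 fall in RASV12 cells and its higher level in RASV12-first than in RASV12 cells were called under every alternative run. The 2 shp53-first falls of Col6a1 and Col6a2 were each lost without any 1 of the 3 shp53 arrays and without shp53-first replicate 2 or 3 (adjusted p = 0.0525 to 0.103). The Col6a1 call against RASV12 cells was lost without RASV12 replicate 1 or 3 (adjusted p = 0.0837 and 0.0828), and the Col6a2 call in shp53-first against RASV12 cells without RASV12 replicate 1 or 3 or shp53-first replicate 1 (adjusted p = 0.0575 to 0.0802). Without RASV12-first replicate 1, Col6a1 and Col6a3 were lower in that group than in shp53 cells (-1.41, adjusted p = 0.0122, and -2.0, adjusted p = 0.0209). Col6a3 was lower in shp53-first than in shp53 cells without shp53-first replicate 1 (-2.01, adjusted p = 0.0409) or RASV12-first replicate 1 (-1.54, adjusted p = 0.0433).

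Type VII collagen makes the anchoring fibrils under epithelia. Col7a1 read 2.10, 2.64 and 2.13 on the shp53 arrays, 3.26, 3.20 and 2.93 on the RASV12 arrays, 2.05, 1.20 and 1.0 on the shp53-first arrays and 0.72, -0.63 and -0.67 on the RASV12-first arrays. RASV12 cells stood highest and RASV12-first cells lowest, without overlap between these groups. Col7a1 was 10-fold lower in RASV12-first than in RASV12 cells (-3.33 ± 0.38, adjusted p = 0.000123), and it was also lower there than in shp53 cells (-2.48 ± 0.38, adjusted p = 0.000529). In shp53-first cells it was lower than in RASV12 cells (-1.71 ± 0.38, adjusted p = 0.00988), while the differences of RASV12 and shp53-first cells from shp53 cells were 0.84 ± 0.38 (adjusted p = 0.134) and -0.87 ± 0.38 (adjusted p = 0.099). Without RASV12-first replicate 1 both of these differences passed, at 0.84 (adjusted p = 0.0369) and -0.87 (adjusted p = 0.0255), and without shp53-first replicate 1 the second was -1.19 (adjusted p = 0.0356).

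The short-chain collagens, types VIII and X, had the 3 lowest log2 differences from shp53 cells of the family in both groups with 2 vectors (Col10a1, Col8a2 and Col8a1). In RASV12 cells Col10a1 was lowest, then Col3a1 and Col8a2. Type VIII forms hexagonal lattices in vessel walls and in Descemet's membrane of the cornea. Col8a1 read 3.20, 2.77 and 3.09 on the shp53 arrays, 0.58, 0.41 and 0.69 on the RASV12 arrays, -2.07, -0.79 and -0.83 on the shp53-first arrays and -0.65, -1.22 and -1.35 on the RASV12-first arrays. The shp53 arrays stood highest, then RASV12 arrays, then both groups with 2 vectors, with no overlap between these 3 tiers. Col8a1 fell by 2.46 ± 0.32, 4.25 ± 0.32 and 4.09 ± 0.32 log2 units relative to shp53 cells, called under every alternative run. It was lower in shp53-first and RASV12-first than in RASV12 cells, with differences of -1.79 ± 0.32 (adjusted p = 0.00345) and -1.63 ± 0.32 (adjusted p = 0.00308).

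Col8a2 read 1.07, 1.77 and 1.06 on the shp53 arrays, -2.62, -1.99 and -2.44 on the RASV12 arrays, -2.75, -4.02 and -4.30 on the shp53-first arrays and -4.48, -6.12 and -5.60 on the RASV12-first arrays. Each group lay apart from shp53 cells, and RASV12-first cells stood lowest. Relative to shp53 cells the differences were -3.65 ± 0.47 (adjusted p = 0.000329), -4.99 ± 0.47 (adjusted p = 3.18e-05) and -6.70 ± 0.47 (adjusted p = 2.79e-06), and RASV12-first cells were lower than RASV12 cells, with a difference of -3.05 ± 0.47 (adjusted p = 0.000762). Only 2 of 3 RASV12-first arrays were well above background at this probe. A second probe read -2.96, -2.26 and -2.77 in shp53 cells and was not well above background on any other array, at least 10.1-fold, 10.6-fold and 10.0-fold lower in RASV12, shp53-first and RASV12-first cells.

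Type X collagen marks hypertrophic cartilage, and its gene had the largest change in the family. The promoter window of Col10a1 (chr10:34389731-34390030 on the plus strand) is shown for that reason, with 1 TATA match in capitals, 32 bases before the start.
Col10a1: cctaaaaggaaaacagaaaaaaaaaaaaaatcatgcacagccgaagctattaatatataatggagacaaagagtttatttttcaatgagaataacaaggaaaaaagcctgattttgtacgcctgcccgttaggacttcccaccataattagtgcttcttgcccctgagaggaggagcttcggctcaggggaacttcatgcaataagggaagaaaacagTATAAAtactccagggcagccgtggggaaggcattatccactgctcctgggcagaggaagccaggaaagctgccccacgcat
Col10a1 read 2.76, 2.88 and 2.69 on the shp53 arrays, -2.97, -1.60 and -2.73 on the RASV12 arrays, -8.27, -8.71 and -7.79 on the shp53-first arrays and -6.71, -8.42 and -8.59 on the RASV12-first arrays. The 3 shp53 values lay within 0.2 of one another, and the probe was not well above background on any array with both vectors. Col10a1 was 36.9-fold lower in RASV12 than in shp53 cells (-5.21 ± 0.50, adjusted p = 4.94e-05). It was at least 460.0-fold lower in shp53-first cells (adjusted p = 3.14e-07) and at least 434-fold lower in RASV12-first cells (adjusted p = 1.48e-07), measured against the higher of the dim probe's own signal and the lowest signal well above background on each array. Against RASV12 cells it was at least 11.8-fold lower in both (adjusted p = 4.76e-05 and 2.51e-05), and with normexp these differences were -0.87 and -0.11, neither called. Of 7 cartilage markers, Matn1, Matn3, Cnmd and Hapln1 did not pass the filter in any group. The summed level of the other 3 ranged from -0.055 to 0.79 in shp53 cells and from -1.50 to -0.058 over the other groups. Comp, a cartilage matrix protein and 1 of these 3, read -0.34, 0.13 and -0.46 in shp53 cells and had mean log2 levels of -5.47, -6.76 and -6.27 in RASV12, shp53-first and RASV12-first cells. Its probe cleared background on 1 array of RASV12 cells and none with both vectors. Comp was called lower in all 3 groups, by limma with adjusted p = 0.000584, 0.000105 and 0.000125, at least 57.5-fold in the shp53-first and 45.9-fold in the RASV12-first group, and the other 2 markers were not called. Shp53 cells were the group through which Comp passed the filter, so the filter in part fixed these differences. Of 6 bone markers Ibsp, Bglap, Alpl and Dmp1 did not pass. In shp53, RASV12, shp53-first and RASV12-first cells, mean log2 levels were -7.80, -6.74, -4.03 and -7.08 for Sp7. For Runx2 they were -2.62, -3.02, -2.50 and -1.40. Of these 2 markers, 0, 1 and 1 were called higher in RASV12, shp53-first and RASV12-first than in shp53 cells, against 14.3%, 17.3% and 21.7% of all genes. None was called lower there. Sp7 passed the filter only through the shp53-first group. The part of these markers in the Col10a1 difference was not tested.

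Transmembrane collagens include the genes that rose most. Col25a1 encodes a collagen of neurons that is found in amyloid plaques. Col25a1 read -8.16, -5.47 and -8.41 on the shp53 arrays, -3.48, -3.06 and -4.37 on the RASV12 arrays, -0.52, -2.32 and -2.05 on the shp53-first arrays and -0.83, -2.08 and -2.53 on the RASV12-first arrays. The shp53 arrays lay lowest, with only 1 of 3 well above background, and all arrays of the other groups were well above it. Col25a1 rose by 3.71 ± 0.80 (adjusted p = 0.00627) in RASV12 cells, 5.72 ± 0.80 (adjusted p = 0.000378) in the shp53-first group and 5.53 ± 0.80 (adjusted p = 0.000337) in the RASV12-first group. With normexp these were -0.90, 0.63 and 0.92, none of them called. Since 2 shp53 arrays were not above background, the size of the rise is uncertain. The 2 other probes that passed gave smaller rises, 1.96 ± 0.55 and 2.15 ± 0.67 in RASV12 cells, 2.94 ± 0.55 and 3.90 ± 0.67 in the shp53-first group and 3.0 ± 0.55 and 4.36 ± 0.67 in the RASV12-first group, each called over all probes. Col23a1 read -5.52, -6.42 and -5.54 on the shp53 arrays, -6.38, -4.59 and -6.43 on the RASV12 arrays, -1.17, -3.26 and -3.20 on the shp53-first arrays and -3.82, -6.31 and -5.08 on the RASV12-first arrays. Col23a1, another transmembrane chain, was highest on the shp53-first arrays, the one group with all 3 arrays well above background (2, 1 and 2 in shp53, RASV12 and RASV12-first cells). It was higher in shp53-first than in shp53 cells (3.29 ± 0.75, adjusted p = 0.00693) and than in RASV12 cells (3.26 ± 0.75, adjusted p = 0.0115), and with normexp these were 0.26 and 1.82, neither called. The filter passed Col23a1 only through the shp53-first group, and the sizes rest in part on arrays at background. Col17a1, the hemidesmosomal collagen, was not called in any comparison, and Col13a1 did not pass the filter.

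The multiplexin Col18a1 encodes the precursor of endostatin and a basement membrane proteoglycan. Col18a1 read -0.70, 0.045 and -0.69 on the shp53 arrays, 0.87, 2.19 and 1.03 on the RASV12 arrays, 1.53, -0.95 and -1.01 on the shp53-first arrays and 2.98, 0.76 and 0.73 on the RASV12-first arrays. RASV12 and RASV12-first arrays lay above all shp53 arrays, but no comparison was called, with differences from shp53 cells of 1.82 ± 0.77 (adjusted p = 0.109), 0.31 ± 0.77 (adjusted p = 0.779) and 1.94 ± 0.77 (adjusted p = 0.0618). Without shp53-first replicate 1, which stood above the other shp53-first arrays, RASV12 cells were higher than shp53 cells (adjusted p = 0.0441), RASV12-first cells were higher than shp53 and than shp53-first cells (adjusted p = 0.0226 and 0.0347), and shp53-first cells were lower than RASV12 cells (adjusted p = 0.0292). Col15a1, the other multiplexin, had 3 probes, of which 1 was well above background on 1 array, a shp53-first array, and was not tested. Col26a1 was well above background only in shp53 cells and was at least 2.36-fold, 2.48-fold and 2.34-fold lower in RASV12, shp53-first and RASV12-first cells (adjusted p = 0.0082, 0.000234 and 0.000424). Shp53 cells were the group through which it passed the filter. With normexp the differences were -1.80, -1.08 and -0.23, and with extreme local backgrounds also replaced -0.32, -0.067 and -0.18, none of them called. Its signal in RASV12 and shp53-first cells, below background in both, gave a call between them (adjusted p = 0.0351) for which no fold is given, and which was lost without any 1 RASV12 array or shp53-first replicate 1 or 2 (adjusted p = 0.0503 to 0.124). The further genes that did not pass the filter were Col6a4, Col6a5, Col6a6, Col9a1, Col9a3, Col19a1, Col20a1, Col22a1 and Col28a1.

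The order of the 2 vectors was compared next, RASV12-first against shp53-first cells. Of 32 collagen genes, 1 was higher (Col16a1) and 3 were lower (Col7a1, Col8a2 and Col23a1) in RASV12-first cells, against 7.33% and 8.47% of all genes tested (15.8% in either direction). The median log2 difference was 0.17, against 0.00058 over all genes. The groups did not overlap in 2 genes that were higher and 3 that were lower, against 15.9% and 16.1% of all genes. Col16a1 was higher by 1.38 ± 0.31 (adjusted p = 0.0137), with within-slide differences of 1.95, 0.96 and 1.22 on slides 1 to 3. Col7a1 was lower, with a difference of -1.61 ± 0.38 (adjusted p = 0.0175) and within-slide differences of -1.32, -1.84 and -1.67. Col8a2 and Col23a1 differed by -1.71 ± 0.47 (adjusted p = 0.034) and -2.53 ± 0.75 (adjusted p = 0.0465). With normexp the Col8a2 difference between the orders turned (0.33, not called), as did that from RASV12 cells (0.27, not called). The second Col8a2 probe was not well above background on any array of either group.

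Samples of the same replicate number deviated together in these 2 groups (r = 0.598, 0.447 and 0.32 for replicates 1 to 3), so the slide was also used as a block. With the block in a fit of the 2 groups alone, 8 collagen genes were called, 5 higher and 3 lower, with 17.3% of all genes called in that fit, and with the block in the fit of all 12 arrays 3 were called. The 4 genes added in the former were Col5a1 (0.84, adjusted p = 0.0185), Col5a3 (1.57, adjusted p = 0.00676), Col6a2 (1.27, adjusted p = 0.0261) and Col18a1 (1.63, adjusted p = 0.00523). Each was higher in RASV12-first than in shp53-first cells on all 3 slides.

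Each of the 4 calls was lost with some array left out. The count was 1 without RASV12-first replicate 2 or 3, 2 without RASV12 replicate 3 or shp53-first replicate 2 or 3, and 8 without RASV12-first replicate 1 (19.4% of all genes). Scaling to the array median gave 8 calls, 5 higher and 3 lower, with 19.8% of all genes called and the all-gene median at 0.25. With normexp none of the 4 was called. Without replicate 1 of both groups and replicate 2 of the other groups, 21 were called, 10 higher and 11 lower, when 48.0% of all genes were called. The Col16a1 call was lost without replicate 3 of shp53-first cells (adjusted p = 0.0519), and the Col7a1 call without replicate 1 of shp53-first or replicate 2 or 3 of RASV12-first cells (adjusted p = 0.0506 to 0.0704). The Col8a2 call was lost without 5 of the 12 arrays in turn, which were RASV12 replicate 3, shp53-first replicates 1 and 2 and RASV12-first replicates 2 and 3 (adjusted p = 0.0517 to 0.12). The Col23a1 call was lost without any array but RASV12 replicate 2 and RASV12-first replicate 1 (adjusted p = 0.0503 to 0.158). Without RASV12-first replicate 1, Col4a1, Col4a2, Col4a5 and Col12a1 were also lower in RASV12-first cells (-0.49, -0.67, -0.94 and -0.60, adjusted p = 0.0359, 0.0147, 0.0117 and 0.0312). Without shp53-first replicate 1, Col11a2 was lower (-1.93, adjusted p = 0.00874) and Col5a1, Col5a3 and Col18a1 were higher (1.13, 2.22 and 2.47, adjusted p = 0.022, 0.0138 and 0.0347).

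**Figure D4:**
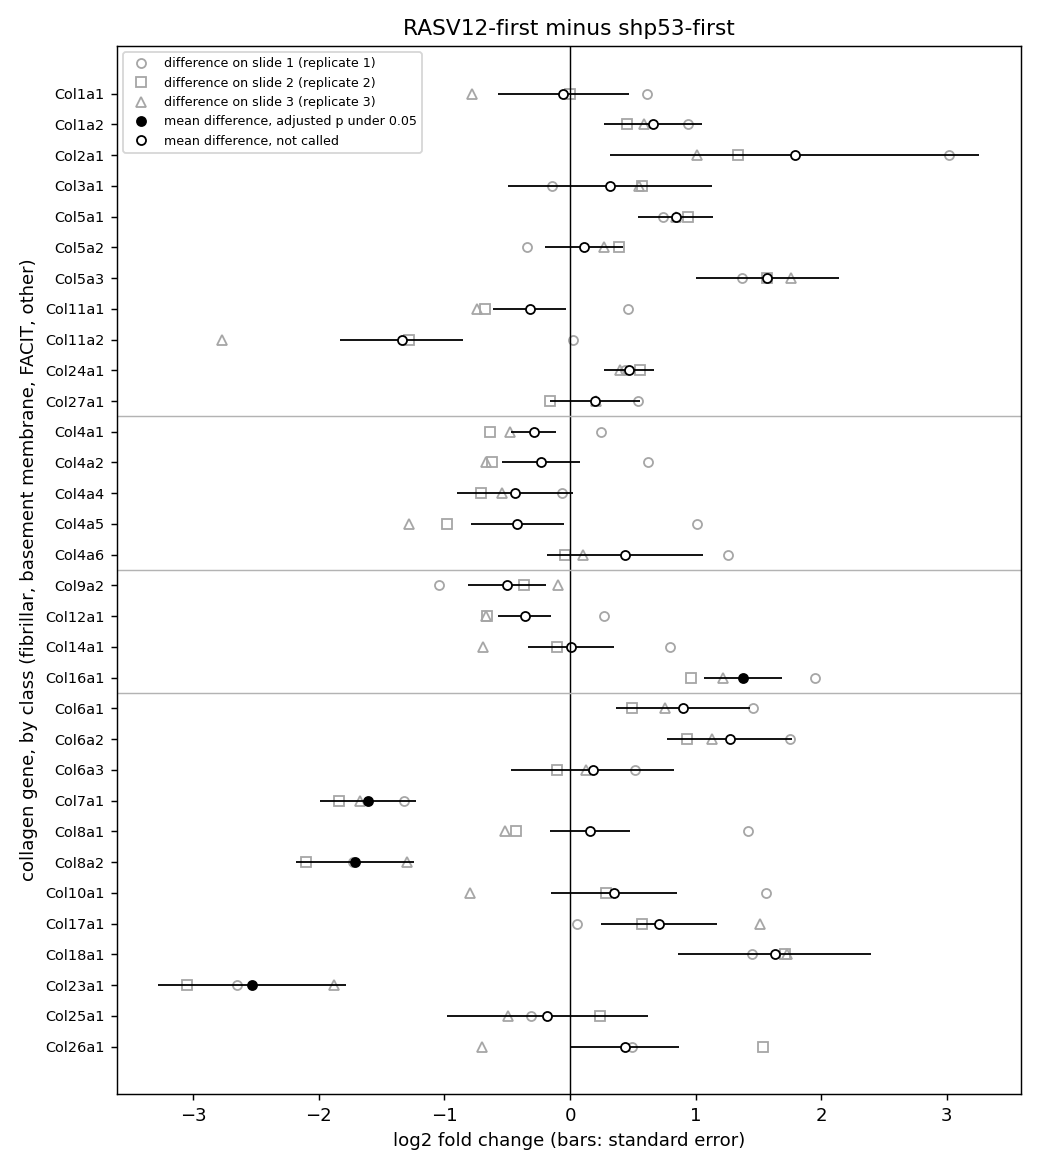
Log2 difference of RASV12-first from shp53-first cells for 32 collagen genes by class, with bars for the standard error. Grey symbols give the difference on each slide. The 4 filled points are Col16a1 at 1.38 and Col7a1, Col8a2 and Col23a1 at -1.61, -1.71 and -2.53, and for these the 3 slides lie on the same side of 0.

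Adding shp53 after RASV12 was compared with RASV12 alone. Of the 32 genes, 4 were higher and 7 were lower in RASV12-first than in RASV12 cells, against 17.2% and 21.7% of all genes (38.8% in either direction), with a median of 0.069 against -0.069. The higher genes were Col1a2, Col6a1, Col6a2 and Col24a1, and the lower genes were Col4a5, Col7a1, Col8a1, Col8a2, Col10a1, Col11a1 and Col11a2. Col16a1 was not called at the probe used (0.62 ± 0.31, adjusted p = 0.142). Its other probes were higher, by 1.41 ± 0.34 and 1.02 ± 0.26 (adjusted p over all probes = 0.00909 and 0.0106), and the mean of its probes was also called. Col11a1 had the smallest of these falls (-0.91 ± 0.29, adjusted p = 0.0299), lost without RASV12 replicate 1 or 2 or RASV12-first replicate 2 or 3 (adjusted p = 0.0544 to 0.0986). In shp53-first against RASV12 cells, 3 genes were higher (Col6a2, Col23a1 and Col24a1) and 5 were lower (Col5a1, Col7a1, Col8a1, Col10a1 and Col26a1), against 10.2% and 15.1% of all genes (25.4% in either direction), with a median of -0.37 against -0.054. Calls in either direction covered 34.4% of the collagen genes in the former comparison and 25% in the latter, near the shares of all genes. The groups did not overlap in 6 higher and 7 lower genes in the former comparison (22.8% and 28.2% of all genes) and 5 and 10 in the latter (18.9% and 24.7%). Scaling to the array median turned the split of the former to 10 higher and 6 lower, with the all-gene median at 0.19. Without the 4 arrays that stood apart the counts of calls were 20 and 23, with 66.8% and 58.2% of all genes called. With normexp Col6a2, Col7a1 and Col24a1 were called in the former comparison (5.70% of all genes) and Col7a1 in the latter (1.34%).

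Further differences from RASV12 cells missed the threshold with all arrays in and passed it with 1 array left out. Where that array was in neither group compared, the difference was that of all arrays, and only the estimate of spread had changed. Without RASV12 replicate 2, Col14a1 was higher in RASV12-first and shp53-first cells (1.15 and 1.14, adjusted p = 0.0174 and 0.025) and Col6a3 in RASV12-first cells (2.05, adjusted p = 0.0298). Without RASV12-first replicate 1, Col12a1 and Col4a6 were lower in RASV12-first cells (-0.76 and -1.33, adjusted p = 0.00534 and 0.0303). In shp53-first cells the unchanged differences of Col4a5, Col16a1 and Col8a2 (-0.98, -0.76 and -1.34) then passed, with adjusted p = 0.00394, 0.00604 and 0.0296. So did that of Col4a2 (0.45, adjusted p = 0.0335). Without shp53-first replicate 1, Col3a1 was higher in RASV12-first cells (1.86, adjusted p = 0.0302), and Col5a2, Col5a3 and Col8a2 were lower in shp53-first cells (-0.99, -1.93 and -1.81, adjusted p = 0.0367, 0.0171 and 0.015). Without shp53 replicate 2, Col25a1 was higher in RASV12-first and shp53-first cells (1.82 and 2.01, adjusted p = 0.0292 and 0.0277). Col17a1 was higher in RASV12-first cells without RASV12 replicate 3 (1.60, adjusted p = 0.0312) or shp53-first replicate 1 or 3 (adjusted p = 0.0308 and 0.0248).

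Genes that act on collagens were followed through 4 lists. Of 19 tested genes for prolyl and lysyl modification and folding, 8, 12 and 11 fell in RASV12, shp53-first and RASV12-first cells relative to shp53 cells, against 12.8%, 20.3% and 23.8% of all genes, and no member was called higher by limma (also 0 at an unadjusted p under 0.05). The medians were -0.49, -0.86 and -0.92, against 0.05, 0.029 and 0.022 over all genes. Serpinh1, which encodes HSP47, fell by 0.92 ± 0.15, 1.24 ± 0.15 and 1.49 ± 0.15, and with normexp none of these falls was called (-0.52, -0.98 and -1.61). Fkbp10, a collagen-folding prolyl isomerase, fell by 0.39 ± 0.12 in RASV12 cells (adjusted p = 0.0319) and by 1.35 ± 0.12 and 1.17 ± 0.12 in shp53-first and RASV12-first cells (adjusted p = 1.86e-05 and 2.89e-05). With normexp the latter 2 falls were -1.10 and -1.40, not called. With extreme local backgrounds also replaced, these 2 falls of Fkbp10 and all 3 falls of Serpinh1 were called. Between the orders, P4ha3, a prolyl 4-hydroxylase subunit, Colgalt1, a collagen galactosyltransferase, and Mia3, a procollagen export factor, were higher in RASV12-first than in shp53-first cells by 1.91 ± 0.46 (adjusted p = 0.018), 0.49 ± 0.14 (adjusted p = 0.0363) and 0.39 ± 0.11 (adjusted p = 0.04). The P4ha3 call was lost without RASV12-first replicate 2 or 3 (adjusted p = 0.0625 and 0.0695). Colgalt1 was lost without shp53 replicate 1 or 3 or any array with both vectors (adjusted p = 0.0505 to 0.105), and Mia3 without replicate 1 or 3 of shp53 or RASV12, shp53-first replicate 2 or 3 or any RASV12-first array (adjusted p = 0.0608 to 0.126). With normexp none of these 3 was called (1.27, 0.10 and -0.11).

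Of 12 tested genes for procollagen processing and crosslinking, 7, 9 and 8 fell relative to shp53 cells, against 12.8%, 20.3% and 23.8% of all genes, with medians of -0.71, -1.24 and -1.49. Lox, the lysyl oxidase that crosslinks fibrils, had mean log2 levels of 3.97, 2.48, 1.09 and -0.83 in shp53, RASV12, shp53-first and RASV12-first cells. Each step of that order was called, from -1.48 ± 0.23 (adjusted p = 0.00111) between RASV12 and shp53 cells and -1.39 ± 0.23 (adjusted p = 0.00246) between shp53-first and RASV12 cells to -1.92 ± 0.23 (adjusted p = 0.000379) between RASV12-first and shp53-first cells. Loxl1 fell by 1.13 ± 0.16, 1.93 ± 0.16 and 1.90 ± 0.16, and with normexp the former 2 falls were not called (-0.82 and -1.67). Tgm2, a transglutaminase that also crosslinks matrix, fell by 0.86 ± 0.23 in RASV12 cells and by 4.18 ± 0.23 and 4.33 ± 0.23 in the shp53-first and RASV12-first groups. With normexp the Lox difference was not called between RASV12 and shp53 cells (adjusted p = 0.0872) or between the orders (adjusted p = 0.167). With extreme local backgrounds also replaced, these Lox and Loxl1 differences were called. With each group's closest arrays averaged, the Lox steps from shp53 to RASV12 cells and from RASV12 to shp53-first cells were not called. The latter step was also lost with the slide block in a fit of those groups alone.

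Of 9 tested collagen receptors, 5, 6 and 6 fell relative to shp53 cells, against 12.8%, 20.3% and 23.8% of all genes, and 1 rose in each group, against 14.3%, 17.3% and 21.7%. Itga11, the integrin chain that binds fibrillar collagen on fibroblasts, fell by 5.48 ± 0.70, 5.87 ± 0.70 and 6.39 ± 0.70. Itga1, the chain of another collagen-binding integrin, fell by 3.86 in RASV12 cells (adjusted p = 0.000544). Its mean log2 levels were -0.68, -4.54, -2.77 and -3.06 in shp53, RASV12, shp53-first and RASV12-first cells. Itga2, the chain of a further collagen-binding integrin, rose in all 3 groups, at least 6.52-fold in RASV12 cells, 2.0-fold in the shp53-first group and 50.1-fold in the RASV12-first group, since it was not well above background on any shp53 array. It was also higher in RASV12-first than in shp53-first cells (4.65 ± 0.60, adjusted p = 0.000541), as was its partner Itgb1 (1.33 ± 0.13, adjusted p = 0.000112). With normexp the Itga2 difference of RASV12 from shp53 cells was -0.87, that of RASV12-first from shp53 cells 1.43 and that between the orders 2.10, and the Itgb1 difference between the orders was 0.94. None of these 4 was called (adjusted p = 0.303, 0.296, 0.289 and 0.432). With extreme local backgrounds also replaced, all 4 were called.

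Of 8 collagen-degrading enzymes, 4, 2 and 2 rose relative to shp53 cells, against 14.3%, 17.3% and 21.7% of all genes, and 3 fell in each of the 3 groups, against 12.8%, 20.3% and 23.8%. The 2 of 8 that rose in RASV12-first cells are a share near that of all genes. Mmp9, a gelatinase, rose by 4.13 ± 0.42, 7.91 ± 0.42 and 6.93 ± 0.42. With normexp the RASV12 difference of Mmp9 was 0.79, not called. Mmp1a, an interstitial collagenase, rose at least 26.2-fold, 43.2-fold and 48.6-fold, with no shp53 array well above background, and with normexp none of these 3 was called (0.22, 0.95 and 1.28). With extreme local backgrounds also replaced, these 3 differences of Mmp1a and the RASV12 difference of Mmp9 were called. Mmp13, another of the 8, stood highest in RASV12 cells. Its mean log2 levels were -0.99, 4.77, -0.55 and 0.32 in shp53, RASV12, shp53-first and RASV12-first cells. It was lower in RASV12-first than in RASV12 cells (-4.45, adjusted p = 0.00174), a call lost with each group's closest arrays averaged. Fap, a fibroblast surface protease, fell by 2.89 ± 0.20, 1.45 ± 0.20 and 1.75 ± 0.20 in RASV12, shp53-first and RASV12-first cells. Ctsk, a lysosomal collagenase, fell by 1.42 ± 0.30, 3.49 ± 0.30 and 1.41 ± 0.30, and was higher in RASV12-first than in shp53-first cells (2.08 ± 0.30, adjusted p = 0.00104), a difference not called with normexp (adjusted p = 0.388). That difference was called with extreme local backgrounds also replaced, and not with each group's closest arrays averaged.

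The macrophage markers fell alongside the collagens in the comparisons with shp53 cells, and contractile markers did too, with 3, 5 and 4 of 5 called lower, against 12.8%, 20.3% and 23.8% of all genes. Among the contractile markers, Des passed the filter only through shp53 cells. The summed level of the contractile markers ranged from 8.62 to 8.66 in shp53 cells, 7.63 to 7.95 in RASV12 cells, 5.31 to 7.15 in the shp53-first group and 6.97 to 7.98 in the RASV12-first group. Of 8 fibroblast markers, 3, 4 and 5 were called lower, against the same shares of all genes. Of the 8, 0, 0 and 1 were called higher, against 14.3%, 17.3% and 21.7% of all genes. Their log2 differences ranged from -2.25 to 0.57, -2.59 to 0.93 and -2.09 to 1.45, so members moved in opposite directions. Their summed level ranged from 7.67 to 8.48 in shp53 cells and from 7.70 to 8.26 over the other groups. Of 4 tested endothelial markers, 1, 0 and 2 were called higher and 0, 1 and 1 lower than in shp53 cells. These stand against the same shares of all genes. Cdh5 and Cldn5 were not well above background on any shp53 array, and Cldn5 passed the filter only through RASV12-first cells. Of 6 epithelial markers only Krt18 passed, called higher in RASV12 cells (3.24) and not in the groups with both vectors. The part of these marker differences in the collagen results was not tested.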

How the data were processed

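RNA from 12 fibroblast samples, 100 ng each per the labels, was measured on 1-colour arrays. Per the file headers, the authors deposited a processed signal intensity for each spot, background-subtracted and detrended within its array, and quality flags (0 or 1), which are no measurement. A deposited log2 value table of 25916 probes served as an alternative (r = 0.9898 to 0.9998 across probes with rebuilt values less each probe's shp53 median, with column medians of -0.01 to 0.17). No header states its centring, and this match is the basis for reading it as log2 relative to shp53 cells. The headers name Feature Extraction 11.5.1.1 and build mm9, and the submitters' processing notes name version 10.7.3.1.

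For each array the log2 intensity less its 75th percentile, controls left out, was averaged over the spots of a probe. Spots marked non-uniform or outlying were left out (1717 values, 0.333%), and a probe counted as well above background on an array when 50% or more of its remaining spots did. Probes had to be so on all 3 arrays of a group. Accessions were named through RefSeq (GRCm38.p6). Of the probes 28330 received 1 name and 11099 none, and the probe with the highest mean stood for a gene. A single limma 3.58.1 model (R 4.3.3, data.table version 1.17.8) held all 12 arrays, with 1 mean per group. On simulated data for the comparison of RASV12 with shp53 cells (14444 genes), 51 of 100 genes changed by 1 log2 unit and 85 of 100 changed by 2 were called, and 4 unchanged genes. The simulated arrays were drawn independently of one another, without the close arrays of the real groups, so these counts do not measure the error under that likeness. The number of arrays limits the precision.

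Values on every array are given for a fixed set of fibroblast collagens and for the up to 3 called genes with the highest and with the lowest log2 difference in each comparison. Genes outside the family are up to 3 called genes per list and comparison with the smallest adjusted p, with the marker genes. Col11a2, Col2a1, Col5a3, Col11a1, Col27a1, Col4a5, Col4a6, Col9a2, Col26a1 and the marker Comp were described beyond that rule, after their values were seen. The members, lists and tests were chosen with earlier results of these data known.

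Alternatives were normexp with an offset of 50, on the median signal because the files hold no mean signal, quantile and array-median scaling, other filters and probe rules, fits of 2 groups, slide blocks, averaged pairs and left-out arrays. Normexp with 75 local backgrounds above 5 times the median replaced, the block in a fit of 2 groups and the brightest probe were added after seeing the data. Replicate numbers deviated together only between the 2 groups with both vectors.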

Additional observations from a re-analysis of the deposited data

How the results depend on the processing

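Normexp lowered the count of called collagen genes to 9 (RASV12 against shp53), 8 (shp53-first against shp53), 11 (RASV12-first against shp53), 3 (RASV12-first against RASV12), 1 (shp53-first against RASV12) and 0 (RASV12-first against shp53-first, limma, with 1 gene at an unadjusted p under 0.05). It also lowered the calls over all genes, to 436 from 3916 in RASV12 against shp53 cells. With the extreme local backgrounds replaced, normexp gave 18, 21 and 15 calls in RASV12, shp53-first and RASV12-first against shp53 cells. It then gave 9 in RASV12-first and 8 in shp53-first against RASV12 cells. Calls over all genes were then 3017 in RASV12 against shp53 cells. Averaging the closest pairs gave 10 (RASV12 against shp53), 13 (shp53-first against shp53), 5 (RASV12-first against RASV12), 1 (shp53-first against RASV12) and 0 between the orders (4 at an unadjusted p under 0.05). Without the 4 arrays that stood apart the counts were 26 for RASV12-first against shp53, 20 and 23 against RASV12, and 21 between the orders. Between the orders, the array median gave 8, no filter 2, probes above background on all 12 arrays 2, a fit of the 2 groups alone 0 (7 at an unadjusted p under 0.05) and normexp with replaced backgrounds 2. For shp53-first against RASV12, probes above background on all 12 arrays gave 5. The replicate block in a fit of 2 groups alone gave 8 between the orders and 4 for shp53-first against RASV12. In other comparisons the block moved no count by more than 1.5 times. Leaving out 1 array gave 19 to 21, 16 to 25 and 15 to 21 calls against shp53, 8 to 13 and 6 to 12 against RASV12, and 1 to 8 between the orders.

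Differences that turned were Col25a1 (-0.90) and Itga2 (-0.87) in RASV12 against shp53, Col11a2 (1.38) and Col8a2 (0.27) in RASV12-first against RASV12, Col8a2 (0.33) and Mia3 (-0.11) between the orders and Col26a1 (0.72, and 0.25 with replaced backgrounds) in shp53-first against RASV12, all with normexp. Without the 4 arrays apart, Col18a1 in shp53-first against shp53 was -0.28 and Col8a1 between the orders -0.48, both called. The cause was not tested. Genes near background, such as Col10a1 with both vectors, have only a bound.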
